A study of Mus musculus with 12 samples.

Results

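The 8 genes described here encode dystrophin and the proteins that hold it at the muscle membrane, together with utrophin, the close relative of dystrophin. They were taken by symbol from a table of 17752 genes, and all 8 were among the 12744 genes that were tested, those averaging 0.5 FPKM or more (fragments per kilobase of transcript, scaled for each library). RNA-seq was performed on EDL (extensor digitorum longus), a fast-twitch hind limb muscle, of male mice in 4 groups of 3 libraries. The mice labelled strNrip1-/- carried floxed Nrip1 alleles, with loxP sites around exon 4, on a C57BL/6J background and a Cre recombinase driven by the muscle creatine kinase promoter, which is active in heart as well as skeletal muscle. The mice labelled WT were littermates without Cre. Trained mice of either genotype had voluntary running wheels for 8 weeks from 8 weeks of age, and sedentary mice had none. The labels number the replicates but do not say whether a library came from 1 animal or a pool, so p-values measure the spread between these libraries. Nrip1 encodes RIP140, a corepressor of nuclear receptors, and the study asked how its loss and exercise training each alter the muscle transcriptome.

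Dystrophin binds the actin cytoskeleton beneath the sarcolemma and joins it to beta-dystroglycan, whose extracellular partner alpha-dystroglycan binds laminin. The sarcoglycans brace this link within the membrane, and the syntrophins and dystrobrevins attach signaling proteins on its inner side. Loss of dystrophin causes Duchenne muscular dystrophy and loss of a sarcoglycan causes limb-girdle muscular dystrophy, while utrophin, which in adult fibers is concentrated at the neuromuscular junction, can take the place of dystrophin in part.

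The genotype labels were checked first. Nrip1 was 2.53 to 4.76 FPKM in the 6 libraries labelled WT and 14.9 to 20.7 FPKM in the 6 labelled strNrip1-/-, so the targeted gene was higher where the labels call it deleted, and every direction below is given by label. The scale of a library, estimated from the spacing of low values, was 19.96 M to 29.17 M fragments. The median ratio to the geometric mean of the libraries was 1.003 in each, so the deposited values already shared a common median scale. The estimated scale therefore need not equal the number of fragments sequenced. Rescaling to an equal sum, used below as an alternative, replaces the common median scale. Fast-fiber markers summed to 87624 to 140969 FPKM and slow-fiber markers to 57.9 to 563 FPKM, so the fast-fiber list had the larger sum in every library. That list includes Ckm and Acta1, which are not limited to fast fibers. The sums for fast-fiber markers were 115582 to 140969 FPKM in labelled WT and 87624 to 114733 FPKM in labelled strNrip1-/- libraries. Averaged over training, 5 of the 9 genes were called lower (Actn3, Acta1, Mylpf, Myh4 and Pvalb), against 3.91% of all tested genes. Of the 9, 1 had a positive difference. In sedentary and in trained muscle 1 of the 9 was called lower. Of all tested genes 3.51% were called in sedentary and 5.98% in trained muscle, in either direction. Endothelial markers summed to 114 to 127 FPKM in labelled WT and 132 to 148 FPKM in labelled strNrip1-/- libraries. Averaged over training, 3 of the 10 genes were called higher, against 4.90% of all tested genes. In sedentary muscle 0 and in trained muscle 1 of the 10 were called higher, beside 3.51% and 5.98% of all genes either way. Mitochondrially encoded transcripts took 51.2% to 52.8% of the FPKM in labelled strNrip1-/- sedentary libraries and 42.2% to 47.3% in the others. The part of these differences in the results below was not tested, and in whole muscle a change in the share of a cell type cannot be told apart from a change of RNA per cell.

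The members differed widely in level. Sgca was highest, at 275 ± 37.2 FPKM (SD, n = 12), and its lowest library lay above the highest of every other member. Dag1 followed at 58.2 ± 5.56 FPKM, and its range did not meet that of the next gene. Sgcb at 33.0 ± 3.05 FPKM and Dtna at 32.5 ± 3.93 FPKM could not be ordered, since their ranges overlapped and Sgcb was above Dtna in only 9 of the 12 libraries. Dmd stood at 13.7 ± 1.77 FPKM and Utrn at 3.96 ± 0.390 FPKM, with no overlap of either range with its neighbors. Sgcd was at 2.36 ± 0.591 FPKM, its highest library at 3.25 FPKM just under the lowest Utrn library at 3.27 FPKM. Sntb1 was lowest at 0.693 ± 0.251 FPKM, and its range overlapped that of Sgcd. The sarcoglycans, which assemble into 1 complex, thus had transcript levels that differed by up to 204-fold within a library between Sgca and Sgcd.

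**Figure D1:**
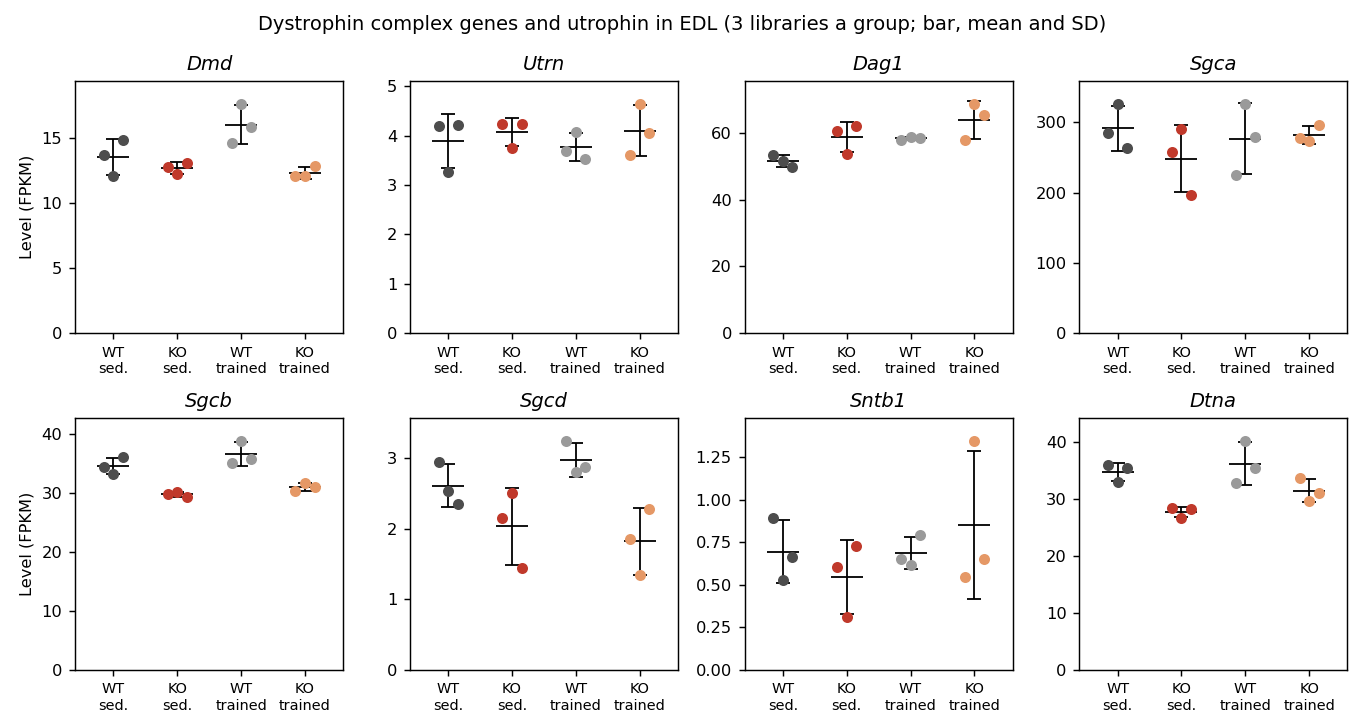
Expression of the 8 genes in each library (vertical axis, FPKM from 0; horizontal axis, labelled genotype and training, where KO stands for labelled strNrip1-/- and sed. for sedentary). Points are libraries and bars the mean and SD of 3. In Sgcb every labelled strNrip1-/- library lay below every labelled WT library, and in Dmd the trained WT libraries stood above both labelled strNrip1-/- groups.

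Dmd, which encodes dystrophin (ENSMUSG00000045103, plus strand of chromosome X, 82948870 to 85206141, GRCm38), was lower in trained muscle labelled strNrip1-/- than in trained muscle labelled WT. Its levels were 13.7, 12.1 and 14.9 FPKM in sedentary labelled WT muscle, 12.8, 12.2 and 13.1 FPKM in sedentary labelled strNrip1-/- muscle, 14.6, 17.6 and 15.9 FPKM in trained labelled WT muscle, and 12.1, 12.1 and 12.9 FPKM in trained labelled strNrip1-/- muscle. The trained groups did not overlap, while the sedentary groups did. The share of all tested genes without overlap between groups of 3 libraries was not counted. Here and below, such a separation is a description only. The 6 labelled strNrip1-/- libraries spanned 12.1 to 13.1 FPKM and the 6 labelled WT libraries 12.1 to 17.6 FPKM. In trained muscle Dmd fell by 0.36 on the log2 scale (SE 0.0910, limma adjusted p = 0.0399), a difference of -22.2% with a 95% interval from -32.3% to -10.6%. A gene was called when the adjusted p was under 0.05 and the fold change above 1.2, both on the log2(FPKM + 0.5) scale, which understates changes of low genes. This call was lost in 15 of 24 alternative analyses, in which the limma adjusted p reached 0.204, although the value stayed negative in each. Without labelled WT trained replicate 2, the highest library, the difference was -0.29 (limma adjusted p = 0.102), and it was -0.37 without replicate 3 of that group (limma adjusted p = 0.106). It was -0.35, -0.35 and -0.39 without replicates 1, 2 and 3 of labelled strNrip1-/- trained muscle (limma adjusted p from 0.0894 to 0.126). Leaving out replicate 1 of either sedentary group kept the value of -0.36 and moved the limma adjusted p to 0.0607 for the WT label and 0.0578 for the strNrip1-/- label. In sedentary muscle the log2 difference was -0.09 (95% interval -0.29 to 0.11, limma adjusted p = 0.735).

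Training itself and its interaction with genotype gave no call for Dmd. The log2 difference of trained against sedentary muscle was 0.24 in labelled WT (95% interval 0.04 to 0.44, limma adjusted p = 0.524) and -0.04 in labelled strNrip1-/- (95% interval -0.24 to 0.16, limma adjusted p = 0.907). The difference between the genotype effects in trained and sedentary muscle was -0.27 (95% interval -0.56 to 0.01, limma adjusted p = 0.640), so the effect in trained muscle was not shown to differ from that in sedentary muscle.

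The sequence before the start of the long Dmd transcript is shown because that transcript encodes full-length dystrophin, and the sequence before an internal start is shown beside it because short Dmd transcripts begin there. Both are RefSeq windows of 250 bases on the plus strand of GRCm38, at chrX:82948620-82948869 and chrX:85048045-85048294, and capitals mark the E-box CANNTG, the motif of basic helix-loop-helix factors, searched on both strands.
Dmd long transcript: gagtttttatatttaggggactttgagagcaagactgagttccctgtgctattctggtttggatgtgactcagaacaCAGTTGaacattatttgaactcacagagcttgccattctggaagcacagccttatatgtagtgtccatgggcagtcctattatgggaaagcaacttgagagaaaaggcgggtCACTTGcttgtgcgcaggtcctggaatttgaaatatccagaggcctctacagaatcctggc
Dmd internal start: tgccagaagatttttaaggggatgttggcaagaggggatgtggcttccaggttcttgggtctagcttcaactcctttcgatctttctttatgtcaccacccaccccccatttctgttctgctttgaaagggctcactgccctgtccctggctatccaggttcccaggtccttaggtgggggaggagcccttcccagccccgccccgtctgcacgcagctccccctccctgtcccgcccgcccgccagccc
The long transcript's window held E-boxes that begin 173 and 61 bases upstream of the start, and the window of the internal start held none. An E-box was present in 66.2% of all 32851 promoter windows of this length, so its presence is a description of the window and no more. The deposited values give 1 number per gene and do not separate transcripts from the 2 starts.

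Utrn, which encodes utrophin (ENSMUSG00000019820, minus strand of chromosome 10, 12382188 to 12869365), showed no difference past the test in any comparison. Its levels were 4.20, 3.27 and 4.22 FPKM in sedentary labelled WT muscle, 4.24, 3.76 and 4.24 FPKM in sedentary labelled strNrip1-/- muscle, 3.69, 4.08 and 3.53 FPKM in trained labelled WT muscle, and 3.61, 4.64 and 4.06 FPKM in trained labelled strNrip1-/- muscle. All 4 groups overlapped. The log2 difference between labelled genotypes, averaged over training, was 0.09 (95% interval -0.10 to 0.27, limma adjusted p = 0.614), a change of 6.10% with an interval from -6.86% to 20.9%. In sedentary muscle it was 0.06 (limma adjusted p = 0.869), and it was -0.074 after scaling all libraries to an equal sum and -0.042 when labelled WT sedentary replicate 2 was left out. In trained muscle it was 0.11 (limma adjusted p = 0.684).

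The level of Utrn relative to Dmd, both per length, was between 0.222 and 0.384 over the 12 libraries. It was 0.287 ± 0.0182 (SD, n = 3) in sedentary muscle labelled WT and 0.321 ± 0.0129 in that labelled strNrip1-/-. In trained muscle it was 0.235 ± 0.0152 for the WT label and 0.333 ± 0.0455 for the strNrip1-/- label. The lowest ratios, 0.252, 0.231 and 0.222, were those of labelled WT trained muscle, the group in which Dmd was highest. Of the genes averaging 5 FPKM or more, those whose log2 levels followed Dmd most closely over the 12 libraries were Ube2j1, Tdrd3 and Otud6b (Pearson r 0.898, 0.895 and 0.893). Those closest to Utrn were Zmym3, Dgcr2 and Mlx (Pearson r 0.855, 0.845 and 0.808). These are the 3 highest of 6848 and 6849 candidates, and the libraries share depth and scaling, so they are a description only.

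Dag1 encodes both dystroglycans as 1 precursor (ENSMUSG00000039952, minus strand of chromosome 9, 108204634 to 108263958). Its levels were 53.4, 51.8 and 49.8 FPKM in sedentary labelled WT muscle, 60.6, 53.8 and 62.2 FPKM in sedentary labelled strNrip1-/- muscle, 57.9, 58.8 and 58.6 FPKM in trained labelled WT muscle, and 57.8, 68.8 and 65.3 FPKM in trained labelled strNrip1-/- muscle. The sedentary groups did not overlap, the labelled strNrip1-/- libraries being the higher, whereas the trained groups overlapped. The averaged log2 difference between labelled genotypes was 0.16 (95% interval 0.03 to 0.28, limma adjusted p = 0.102) and was not called. The averaged difference of trained against sedentary muscle was 0.15 (95% interval 0.03 to 0.27, limma adjusted p = 0.311) and was not called either. Together with Utrn, Dag1 was 1 of the 2 members with a positive averaged genotype difference.

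Among the sarcoglycans, Sgcb and Sgcd had adjusted p values under 0.05 with lower levels in labelled strNrip1-/- muscle, and Sgca was not shown to differ. Sgcb, beta-sarcoglycan (ENSMUSG00000029156, minus strand of chromosome 5, 73632749 to 73647790), was at 34.4, 33.3 and 36.1 FPKM in sedentary labelled WT muscle, 29.8, 30.3 and 29.4 FPKM in sedentary labelled strNrip1-/- muscle, 35.2, 38.9 and 35.8 FPKM in trained labelled WT muscle, and 30.3, 31.8 and 31.1 FPKM in trained labelled strNrip1-/- muscle. All 6 labelled strNrip1-/- libraries, at 29.4 to 31.8 FPKM, lay under all 6 labelled WT libraries, at 33.3 to 38.9 FPKM. Sgcb was the only member without overlap, a pattern that 3.23% of all tested genes showed in that direction. Averaged over training, its log2 difference was -0.22 (SE 0.0437, limma adjusted p = 0.00753), a change of -14.3% with a 95% interval from -19.8% to -8.39%. The differences were -0.21 in sedentary muscle (limma adjusted p = 0.0985) and -0.23 in trained muscle (limma adjusted p = 0.0487), so the size was alike in both and below the fold of 1.2 in each. With libraries scaled to an equal sum the averaged difference was -0.27 and passed the fold, and with an equal nuclear sum it was -0.16 and no longer passed the test (limma adjusted p = 0.119).

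The window before Sgcb is shown as that of the member with the cleanest separation. The 197 bases at chr5:73647791-73647987 (RefSeq, GRCm38, minus strand, written in the direction of transcription) are those that lie upstream of the annotated gene, and the other 53 bases of the window were left out.
Sgcb: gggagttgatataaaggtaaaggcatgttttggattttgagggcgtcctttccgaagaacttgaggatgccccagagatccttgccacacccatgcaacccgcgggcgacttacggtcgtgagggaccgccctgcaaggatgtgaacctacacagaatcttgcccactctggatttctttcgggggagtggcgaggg
No E-box, no TTCCGG and no AGGTCA was found in the whole window on either strand. TTCCGG is the core of the N-box bound by GABP, a factor known to act on the utrophin promoter, and AGGTCA is the half-site of nuclear receptors. They were present in 12.03% and 14.0% of all windows. None of the 8 windows read for Dmd, Utrn, Dag1, Sgca, Sgcb and Sgcd held TTCCGG, and AGGTCA was found in that of Utrn alone. E-boxes numbered 7 in the Utrn window, 2 in that of Sgcd and 1 in each of those of Dag1 and Sgca. A count of 7 or more was found in 0.0761% of all windows. The Utrn and Sgcd windows each lie inside a longer annotated transcript of the same gene, so neither stands for every start of its gene.

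Sgcd encodes delta-sarcoglycan (ENSMUSG00000020354, minus strand of chromosome 11, 46896253 to 47988969), and it was the only member called when genotype was averaged over training. Its levels were 2.94, 2.53 and 2.35 FPKM in sedentary labelled WT muscle, 2.15, 2.51 and 1.437 FPKM in sedentary labelled strNrip1-/- muscle, 3.25, 2.80 and 2.87 FPKM in trained labelled WT muscle, and 1.85, 1.34 and 2.28 FPKM in trained labelled strNrip1-/- muscle. The trained groups did not overlap and the sedentary groups did, through labelled strNrip1-/- sedentary replicate 2. Averaged over training Sgcd fell by 0.46 on the log2 scale (SE 0.131, limma adjusted p = 0.0459), a change of -27.2% with a 95% interval from -40.3% to -11.1%. The log2 difference was -0.32 in sedentary muscle (limma adjusted p = 0.456) and -0.60 in trained muscle (limma adjusted p = 0.0859). The averaged call was lost in 15 of 22 alternatives, among them the leaving out of 10 of the 12 libraries in turn, in which the value ran from -0.49 to -0.37. The call held without labelled strNrip1-/- sedentary replicate 2 or trained replicate 3, each at -0.53. Over the alternatives the limma adjusted p ran from 0.0309 to 0.134.

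Sgca, alpha-sarcoglycan (ENSMUSG00000001508, minus strand of chromosome 11, 94962791 to 94976327), was at 285, 326 and 264 FPKM in sedentary labelled WT muscle, 258, 291 and 196 FPKM in sedentary labelled strNrip1-/- muscle, 225, 326 and 280 FPKM in trained labelled WT muscle, and 277, 273 and 296 FPKM in trained labelled strNrip1-/- muscle. The groups overlapped in both comparisons of genotype. The averaged log2 difference was -0.10 (95% interval -0.34 to 0.14, limma adjusted p = 0.651). The value was 0.04 in trained muscle and turned to -0.10 without labelled WT trained replicate 1.

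Sntb1 encodes beta1-syntrophin (ENSMUSG00000060429, minus strand of chromosome 15, 55636388 to 55906949), an adaptor on the inner side of the complex. Its levels were 0.894, 0.529 and 0.662 FPKM in sedentary labelled WT muscle, 0.603, 0.307 and 0.725 FPKM in sedentary labelled strNrip1-/- muscle, 0.652, 0.613 and 0.789 FPKM in trained labelled WT muscle, and 0.546, 1.35 and 0.652 FPKM in trained labelled strNrip1-/- muscle. All groups overlapped, and the averaged log2 difference between labelled genotypes was -0.03 (95% interval -0.40 to 0.33, limma adjusted p = 0.946). The value of 1.35 FPKM set the direction in trained muscle, where the log2 difference of 0.14 turned to -0.11 without labelled strNrip1-/- trained replicate 2.

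**Figure D2:**
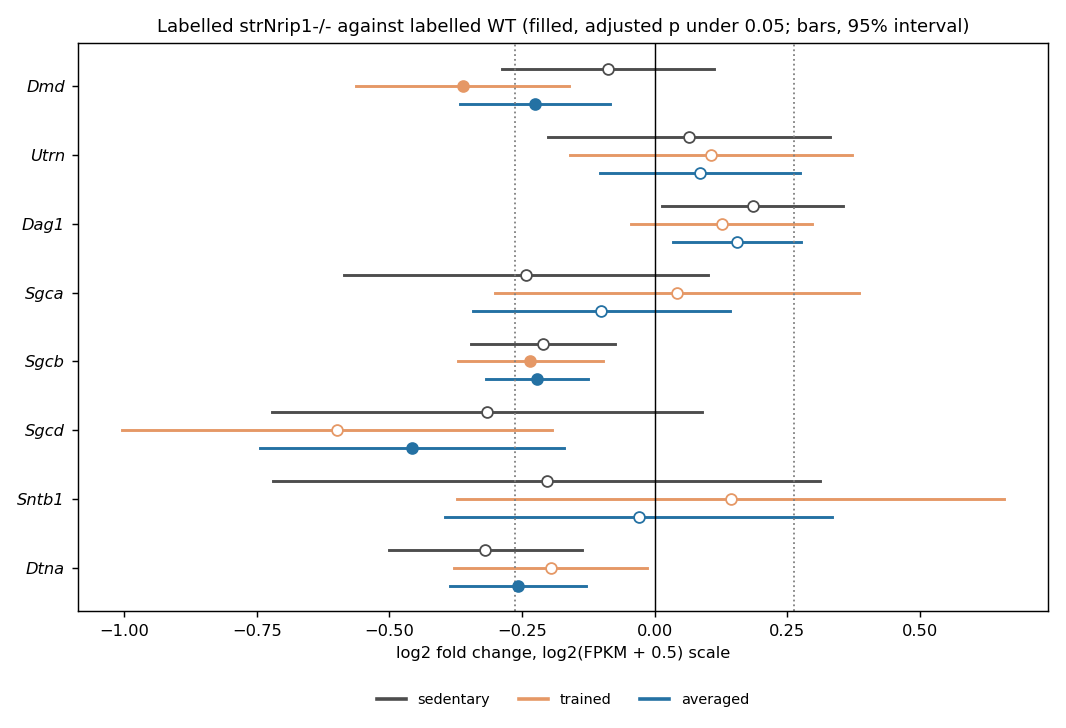
Log2 difference of labelled strNrip1-/- against labelled WT for the 8 genes (horizontal axis, log2(FPKM + 0.5) scale) in sedentary muscle, in trained muscle and averaged over training. Points are limma estimates, filled where the adjusted p was under 0.05, bars are 95% intervals and dotted lines mark a fold of 1.2. Averaged over training, Dmd, Sgcb, Sgcd and Dtna lay below 0 with filled points, and the point of Sgcd alone lay clearly beyond the dotted line.

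Dtna encodes alpha-dystrobrevin, a dystrophin-related protein that binds syntrophins (ENSMUSG00000024302, plus strand of chromosome 18, 23415135 to 23659715). Its levels were 35.9, 33.0 and 35.4 FPKM in sedentary labelled WT muscle, 28.3, 26.7 and 28.1 FPKM in sedentary labelled strNrip1-/- muscle, 32.8, 40.2 and 35.5 FPKM in trained labelled WT muscle, and 33.6, 29.6 and 31.0 FPKM in trained labelled strNrip1-/- muscle. The sedentary groups stood well apart, and the trained groups overlapped through labelled strNrip1-/- trained replicate 1. Averaged over training the log2 difference was -0.26 (SE 0.0585, limma adjusted p = 0.0163), a change of -16.4% with a 95% interval from -23.5% to -8.56%, just short of the fold of 1.2. It was -0.32 in sedentary muscle (limma adjusted p = 0.0635) and -0.20 in trained muscle (limma adjusted p = 0.202). The averaged difference passed the fold in 8 of 23 alternatives and stayed negative in all of them. Of the 8, 6 left out a library (WT label, sedentary replicate 2 and trained replicates 1 and 3, or strNrip1-/- label, sedentary replicates 1 and 3 and trained replicate 1), with values from -0.29 to -0.26. In sedentary muscle the call was reached in 3 of 24 alternatives, 1 of them without labelled WT trained replicate 2 (limma adjusted p = 0.0352).

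The averaged comparison rests on the same 12 libraries as the comparisons within sedentary and trained muscle. Counts of 0 or 1 in 8 are too small to set the members apart from the share of all genes called. In sedentary muscle 0 of 8 were called, against 3.51% of all tested genes, and 3 had an unadjusted limma p under 0.05. In trained muscle 1 of 8 was called, the lower Dmd, against 5.98% of all genes called and 2.77% called lower. Averaged over training 1 of 8 was called, the lower Sgcd, against 8.80% of all genes called, 3.91% lower and 4.90% higher. By the adjusted p alone 4 of 8 were lower (Dmd, Sgcb, Sgcd and Dtna), against 5.55% of all genes. The median log2 difference of the 8 was -0.16 averaged over training, beside 0.00 for all genes, and 2 of the 8 values were above 0. The 4 fell to 2 with the replicate block or with length and GC trends removed and to 0 with libraries rescaled to the same nuclear sum.

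Training gave no call for any member. The call rate over all genes was 0% for training in labelled WT, where 1061 genes had an unadjusted limma p under 0.05. It was 0% in labelled strNrip1-/- too, where 1544 genes had such a p. For training averaged over genotype it was 0.118%, and for the interaction of genotype and training 0%, with 989 genes at an unadjusted limma p under 0.05. Averaged over genotype, the log2 differences of trained against sedentary muscle ran from -0.02 for Utrn to 0.17 for Sntb1, with limma adjusted p values from 0.311 to 0.974.

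**Figure D3:**
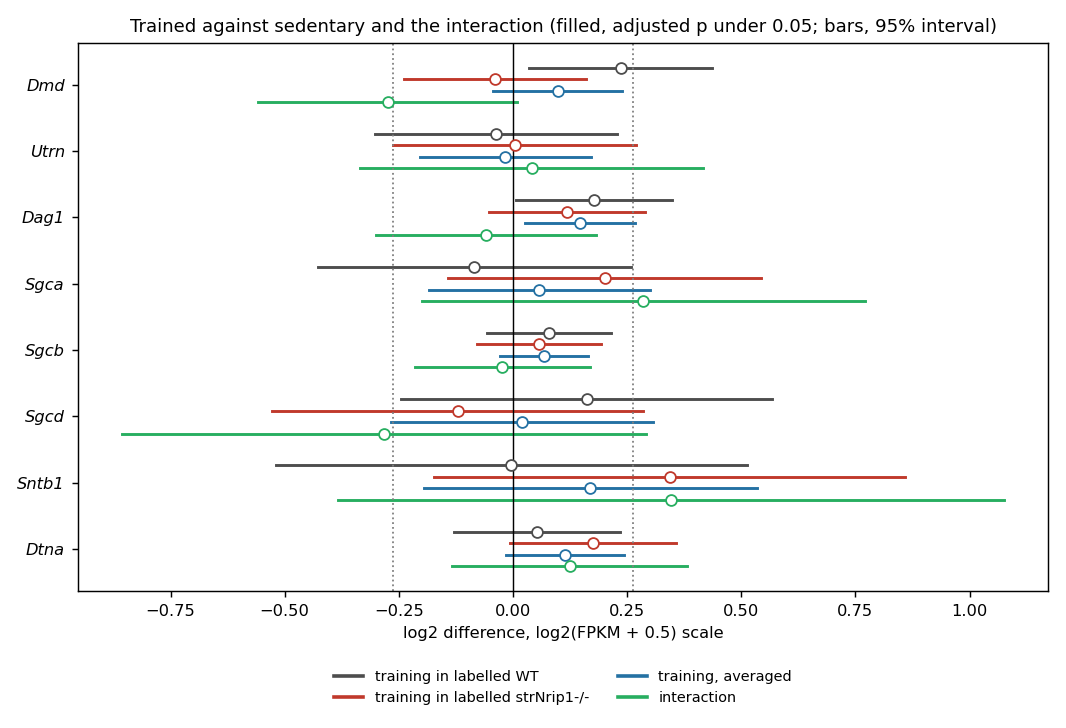
Log2 difference of trained against sedentary muscle for the 8 genes, in each labelled genotype and averaged, and the genotype by training interaction (horizontal axis, log2(FPKM + 0.5) scale). Points are limma estimates, bars 95% intervals and dotted lines a fold of 1.2. No point is filled, since no adjusted p was under 0.05. The Dmd interval for training in labelled WT, 0.04 to 0.44, lay above 0, and that in labelled strNrip1-/- spanned 0.

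Of the other genes of the complex, 8 were tested and 1, Nos1, was called averaged over training, against 8.80% of all tested genes. Nos1 encodes neuronal nitric oxide synthase, which is held at the sarcolemma through syntrophin and dystrophin. It was at 28.7, 18.7 and 20.8 FPKM in sedentary labelled WT muscle, 15.3, 12.3 and 17.2 FPKM in sedentary labelled strNrip1-/- muscle, 26.8, 23.7 and 25.1 FPKM in trained labelled WT muscle, and 17.1, 13.9 and 14.1 FPKM in trained labelled strNrip1-/- muscle. All 6 labelled strNrip1-/- libraries lay below all 6 labelled WT libraries. Averaged over training Nos1 fell by 0.66 on the log2 scale (SE 0.112, limma adjusted p = 0.00348), and the call held in all 23 alternatives. The remaining 7 genes were not called. Sntb2, beta2-syntrophin, ranged from 0.764 to 1.29 FPKM with an averaged log2 difference of 0.17. The averaged log2 difference was -0.10 for sarcospan (Sspn), -0.14 for caveolin-3 (Cav3), 0.06 for beta-dystrobrevin (Dtnb) and -0.04 for epsilon-sarcoglycan (Sgce). The median of the 8 was -0.01.

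The next lists are given for the averaged comparison, in which 8.80% of all tested genes were called, 3.91% lower and 4.90% higher. Genes that act on dystroglycan did not pass the test. Of 19 tested genes for the glycosylation of alpha-dystroglycan 0 were called in the averaged comparison, with 6 at an unadjusted limma p under 0.05 and a median log2 difference of -0.07. Of 12 tested matrix ligands such as the laminins 0 were called, with 0 at an unadjusted limma p under 0.05 and a median of 0.03. Other links between cytoskeleton and matrix held calls in both directions. In the integrin list 4 of 12 genes were lower and 0 higher. These were Itga7, the alpha7 integrin of muscle laminin receptors (-0.31), Tln2, talin-2 (-0.32), Fermt2, kindlin-2 (-0.37), and Itgb1bp2, melusin (-0.29). The call for Tln2 was lost in 15 of 23 alternatives, that for Itga7 with libraries scaled to the same nuclear sum, and that for Itgb1bp2 with that scaling and without labelled WT trained replicate 2 (-0.26). In the costamere list 2 of 16 were lower, Synm, which encodes the intermediate filament protein synemin (-0.47), and Ldb3, a Z-disc protein gene (-0.30, and -0.24 with the same nuclear sum), and 1 was higher, Ank2, which encodes ankyrin-B (0.51). Of 16 long muscle transcripts, chosen for length rather than function, 3 were lower, Myom1 (-0.42), Ahnak (-0.40) and Syne1 (-0.37), and the list's median was -0.02. This list shares genes with the others, and Ahnak is counted again among the membrane repair genes below. The call for Syne1 was lost in 2 of 23 alternatives, with libraries scaled to the same sum or to the same nuclear sum (limma adjusted p = 0.0553 and 0.133).

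**Figure D4:**
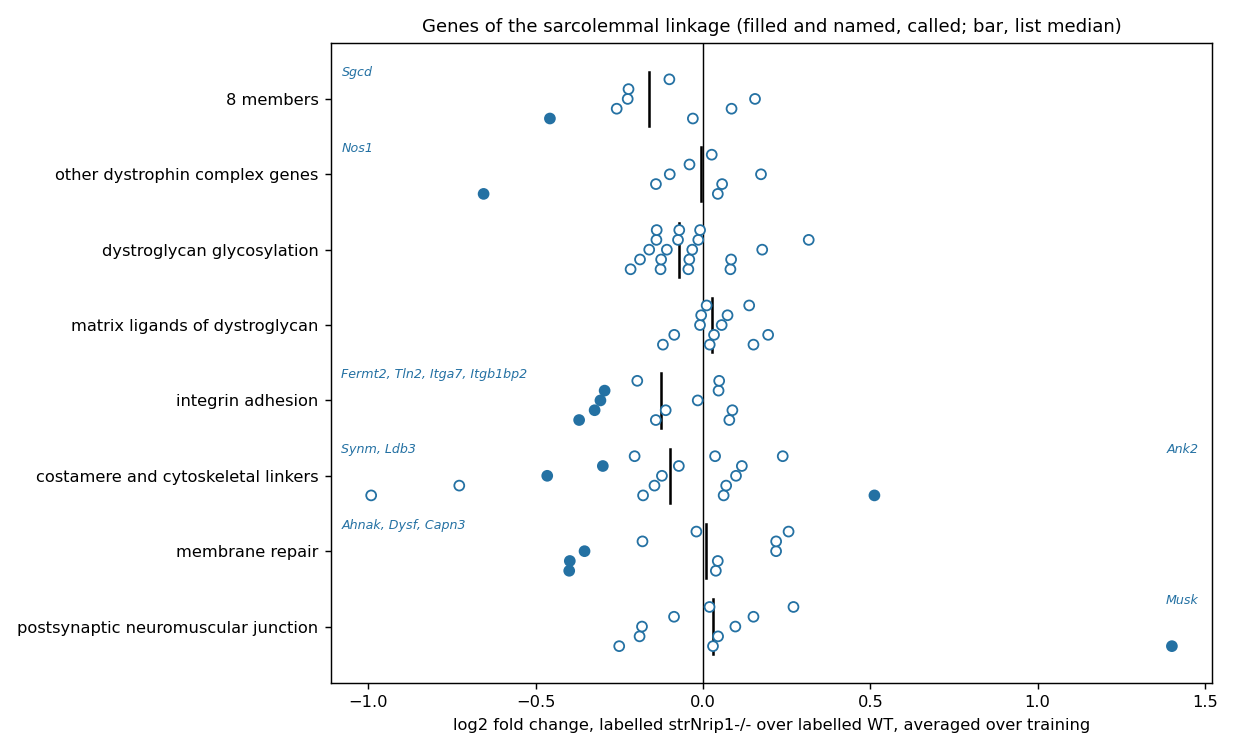
Averaged log2 difference of labelled strNrip1-/- against labelled WT (horizontal axis) for each tested gene of the 8 members and of 7 lists of related genes (rows). Each point is a gene, filled where called, with called genes named at the left when lower and at the right when higher, and the vertical bar is the median of the list. The members had a median of -0.16, and the 19 glycosylation genes had no filled point.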

How the data were processed

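Values were deposited by the authors as FPKM for each gene and library, made per the labels with Salmon 1.10.2 on mm10 and, per the study's methods, with tximport and DESeq2 1.44.0. Strand was not stated, so overlapping antisense genes may share reads. The 8 columns of the authors' own comparisons, log2 fold changes and adjusted p-values deposited beside them, were not used. Since these values are not counts, tests were run on log2(FPKM + 0.5). Genes averaging 0.5 FPKM or more over the libraries were kept, and 4 group means were fitted to all 12 libraries with limma 3.58.1 (R 4.3.3, mean-dependent variance prior). P-values were two-sided and adjusted by the method of Benjamini and Hochberg over the 12744 genes of a comparison. Genes were called at an adjusted p under 0.05 and a fold above 1.2, the interaction by the adjusted p alone. Whole fragments fitted 99.1% to 99.8% of low values within 0.15, at the scale and fragment length chosen for the best fit. The chance level of 30% is that of a scale not fitted, so it is no test of the fit. The low values came from 428 to 492 genes a library, among 1613 genes of a single transcript over 1500 nt. At the estimated scale 3 fragments on a transcript of 2 kb equal 0.0514 to 0.0752 FPKM, a limit for counting error only. Coordinates are from GENCODE M21 (GRCm38) and are 1-based. Promoter windows are from RefSeq. Windows were read for 6 of the 8 members. Sntb1 had no entry among the windows, and Dtna was left out. The members and gene lists were chosen with earlier results of these data known. Genes named beyond the members were the remaining muscle genes of the complex, some of which are not reported here, and the called genes of each related list, at most 6 a list by smallest adjusted p. The alternatives tried were other pseudocounts, filters, variance priors, scalings, a correction for length and GC, a replicate block and the leaving out of each library. Scripts were tested on simulated data.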

Additional observations from a re-analysis of the deposited data

How the results depend on the processing

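The 24 alternatives were set against 52 single-gene results, which gave 1203 values. Of these 1105 kept direction and side of the threshold, 70 lost the call, 14 gained it and 14 changed sign, of which 0 had an adjusted p under 0.05. The causes were not tested, beyond the smaller or larger number of genes tested under another filter.

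The count of members called in sedentary muscle, 0, became 1 with a mean of at least 5 FPKM and 2 with the same sum. The count in trained muscle, 1, became 0 with no filter, a constant variance prior, the libraries of the contrast only, the same sum, the same nuclear sum, or length and GC trends removed. The averaged count, 1, became 0 with no filter, the same nuclear sum or length and GC trends removed, 2 with quantile normalization and 3 with the same sum. It was also 0 with a mean of at least 5 FPKM, a filter that left Sgcd, the gene called, untested along with Utrn and Sntb1. The 4 members below an adjusted p of 0.05 became 2 with no filter or with length and GC trends removed and 0 with the same nuclear sum. Leaving out each library gave 0 to 1 members in sedentary muscle, 0 to 2 in trained muscle, 0 to 1 averaged and 2 to 4 by the adjusted p alone. The member called in the averaged comparison was not always the same. It was Sgcd without 2 of the libraries and Dtna without 6 others.

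The labels do not say whether replicate numbers pair the samples. Same-numbered libraries of different groups had correlations of their deviations from -0.105 to 0.241, with 5 of 18 above 0.1 and 6 best with their own number. The highest, 0.162, 0.195 and 0.241, were among replicates 2 of labelled WT sedentary, labelled strNrip1-/- sedentary and labelled WT trained muscle. A shared effect of that replicate number was not tested. With the replicate block, alone or with length and GC trends removed, the members called became 0 in trained muscle and 0 averaged, and 2 by the adjusted p alone. With the block the limma adjusted p was 0.0529 for Dmd in trained muscle and 0.0641 for Sgcd averaged. Over all genes the block gave 4 calls for training in labelled WT, and 1 with length and GC trends removed, and 6 for averaged training with both.

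Over all genes, the libraries of the contrast only gave 166 calls in sedentary and 445 in trained muscle, against 447 and 762. Training in labelled WT, at 0, gave 8 with a mean of at least 5 FPKM, 1 with the same sum, 2 with the same nuclear sum and 4 with quantile normalization. Training in labelled strNrip1-/-, at 0, gave 5, 150 and 3 with the first 3 of these. Averaged training, at 15, gave 26 with the same sum, 28 with quantile normalization and 9 with length and GC trends removed. Leaving out each library gave 163 to 478 calls in sedentary muscle, 315 to 874 in trained muscle, 849 to 1193 averaged, 0 to 30 for training in labelled WT, 0 to 4 in labelled strNrip1-/- and 1 to 190 for averaged training. The lowest of the last came without labelled WT sedentary replicate 3 or labelled strNrip1-/- trained replicate 2. The highest came without labelled WT trained replicate 1.

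With the same sum the median log2 difference of all genes was -0.14 in sedentary muscle and 0.06 in trained muscle, against 0.00 and 0.01. The share of called genes that were higher, 54.8% in sedentary, 53.7% in trained and 55.6% in averaged comparisons, was 18.6%, 80.9% and 45.02% with the same sum and 82.7%, 75.8% and 77.5% with the same nuclear sum.

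Values that changed sign were those of Utrn in sedentary muscle (-0.074 with the same sum, -0.042 to 0.12 leaving out each library), Sgca in trained muscle (-0.061 with quantile normalization, -0.069 with length and GC trends removed, with and without the block, -0.10 to 0.17 leaving out each library), and Sntb1 in trained muscle (-0.11 to 0.30 leaving out each library). Averaged Sntb1 became 0.0064 with the same nuclear sum and -0.16 to 0.057 leaving out each library. Averaged Dtnb was -0.0029 to 0.14 leaving out each library. Sntb1, the lowest member, rested on about 31.7 to 157 fragments a library if read along its longest transcript.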

Other observations

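Genes of membrane repair, the process that reseals a torn sarcolemma, moved in both directions in labelled strNrip1-/- muscle, and the list's median was 0.01 on the log2 scale. Averaged over training 3 of 10 were called lower and 0 higher, against 3.91% and 4.90% of all tested genes. Dysf encodes dysferlin, which is lost in a limb-girdle dystrophy, and was at 11.1 to 14.9 FPKM in labelled WT and 8.62 to 10.7 FPKM in labelled strNrip1-/- libraries, without overlap (log2 difference -0.40, limma adjusted p = 0.00423, and 0.0621 with the same nuclear sum). Capn3, the muscle calpain, was at 48.3 to 54.1 and 34.7 to 41.2 FPKM (-0.35), and Ahnak, which encodes a dysferlin partner, at 28.5 to 32.3 and 20.96 to 25.4 FPKM (-0.40), again without overlap. In trained muscle 3 of 10 were called lower, Dysf, Capn3 and Ahnak, and 2 higher, against 5.98% of all tested genes in either direction. The list's median there was -0.16. The 2 higher genes were Trim72, which encodes the repair protein MG53, and Anxa6, annexin A6, at 0.31 for each. The call for Trim72 was lost in 12 and that for Anxa6 in 6 of 24 alternatives.

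At the postsynaptic neuromuscular junction, where utrophin is concentrated, 1 of 11 tested genes was called averaged over training. This count is too small to set the list apart from the 8.80% of all tested genes called. The gene was Musk, which encodes the receptor kinase that organizes the synapse. Musk was at 0.673 to 1.17 FPKM in labelled WT and 2.78 to 3.79 FPKM in labelled strNrip1-/- libraries (averaged log2 difference 1.401). Of 13 genes listed for the utrophin promoter, not each an established regulator of it, 2 were called higher, against 4.90% of all tested genes. They were Esrra, which encodes the nuclear receptor ERR alpha (0.62), and Ppargc1b, which encodes the coactivator PGC-1 beta (0.87). Gabpa and Gabpb1, which encode GABP subunits, had log2 differences of -0.01 and 0.10 and were not called. Of 12 genes of regeneration and injury 0 were called with limma in the averaged comparison, and 2 had an unadjusted p under 0.05.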
